A study of Homo sapiens with 27 samples.

Results

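Expression of 48 genes of DNA replication and S phase was compared among 4 pools of T47D cells, a luminal breast cancer line. The genes were taken by name from the 26485 genes of the count table and fall into 10 roles, from origin licensing to the control of the G1/S transition. The control pool carried the empty pHAGE lentiviral vector, and the other pools expressed a truncated GATA3 with the Splice del, C321fs or A333fs mutation. GATA3 is a transcription factor of the luminal mammary lineage, and all of these mutations alter or remove its second zinc finger. Each mutant was expressed as a fusion with the 3xTy1 tag and selected with puromycin, and the cells kept their own GATA3, so that each line is 1 pool in which mutant and wild-type protein are both present. There were 3 RNA-seq libraries per line and 12 in all. The study calls them biological replicates, but neither it nor the labels say whether the libraries of a line came from separate cultures, so the p-values measure the spread between these libraries, which may be technical. The sample labels and the study's methods name different growth media, and the medium of these libraries is not settled.

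DNA is copied once per cell cycle. In G1 phase, the origin recognition complex, CDC6 and CDT1 load the MCM2-7 helicase onto origins, and at the start of S phase CDC45 and the GINS complex turn the loaded helicase on. Primase and the polymerases then copy the strands, held by the sliding clamp PCNA, while ribonucleotide reductase and thymidine kinase supply the nucleotides. Most of these genes are transcribed at the G1/S boundary under E2F transcription factors, which is why they are used as a readout of cycling cells. In bulk RNA, fewer cells in S phase and less RNA of these genes per cell cannot be told apart. The paper counted cells of these lines over several days and reported no significant effect of the mutants on growth. It found slightly more C321fs cells on the last day. Whether the RNA levels below relate to growth was not tested.

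All 48 genes passed the filter on low counts and were among the 14789 genes tested. The lowest count of any of them in any library was 263, for CCNE1. Libraries held 27872208 to 36788024 counted fragments, and the scaling factors of the TMM normalisation were 0.884 to 0.943 in control and 1.01 to 1.05 in the mutant libraries. The 9 luminal epithelial markers, which include KRT8, KRT18, GATA3 and ESR1, summed to 12052 to 21440 CPM (counts scaled to library size) in every line, and those of endothelial cells to 0.0295 to 0.383 CPM. Their sum was 18216 to 21440 CPM in control and 12052 to 14998 CPM in the mutant libraries, and KRT8 had log2 fold changes against control of -1.02, -0.84 and -0.49 in the mutant lines, which are given in the order Splice del, C321fs and A333fs throughout. Of the 9 luminal markers 4, 4 and 5 fell and 2, 1 and 2 rose, EPCAM among them in each line (0.42, 0.37 and 0.37). Of 7 fibroblast markers 2 were tested, COL3A1 and COL1A1, and the 7 summed to 53.2 to 65.0 CPM in the control libraries and to 45.0 to 50.7, 40.9 to 49.7 and 29.7 to 33.5 CPM in the mutants. The 5 leukocyte markers summed to 5.29 to 8.46 CPM in all lines, with CD14 higher in Splice del (log2 fold change 1.87 ± 0.18, SE, adjusted p = 1.03e-06) and A333fs cells (0.93). CD68 passed in none of the lines. The part of these markers in the results below was not tested.

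As a group, the 48 genes were lower in all 3 mutant lines on TMM-scaled counts. This did not hold for the 30 further replication genes given below. A gene is said to have passed when its Benjamini-Hochberg adjusted p, over all genes tested with edgeR's quasi-likelihood test, was below 0.01, and to have been called when its fold change was also over 1.5. In Splice del cells 29 of the 48 genes fell and 0 rose, where 22.4% of all tested genes fell and 18.7% rose. In C321fs cells 21 fell and 3 rose, against 20.7% and 16.1% of all genes. In A333fs cells 25 fell and 2 rose, against 26.4% and 21% of all genes. The median log2 fold change of the 48 genes was -0.33, -0.17 and -0.20 in the mutant lines, while the medians over all tested genes were 0.03, 0.02 and 0.01. These comparisons share the 3 control libraries. Scaled by library size alone, where the medians over all tested genes were 0.22, 0.19 and 0.16, the medians of the 48 genes were -0.14, -0.0010 and -0.056, and 20, 11 and 19 genes fell while 6, 11 and 10 rose. With upper-quartile scaling 25, 16 and 20 fell and 0, 8 and 10 rose. The shares of all tested genes under these other scalings are not given here, so these counts have no background beside them. No gene rose in Splice del cells at an unadjusted p below 0.05 in edgeR (0 of 48) or in DESeq2 (0 of 48).

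Most of the changes were small. Past a fold change of 1.5, 8 genes were lower with Splice del, where 4.53% of all tested genes were. With C321fs it was 1 gene, against 2.26% of all, and with A333fs 7 genes, against 6.81%, and 0 were higher in any line. These counts depended on the scaling and on the control libraries: with library size alone they were 0, 0 and 2. Without control replicate 2 there were 5 with Splice del and 0 with C321fs, without control replicate 1 there were 3 with C321fs, and without C321fs replicate 1 there were 2. The libraries of a mutant lay below all 3 control libraries for 36, 27 and 29 of the 48 genes, while this was so for 31.3%, 26.7% and 34.3% of all tested genes. An F-test found a difference among the 4 lines for 32 of the 48 genes, a share of 56.2% among all tested genes.

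**Figure D1:**
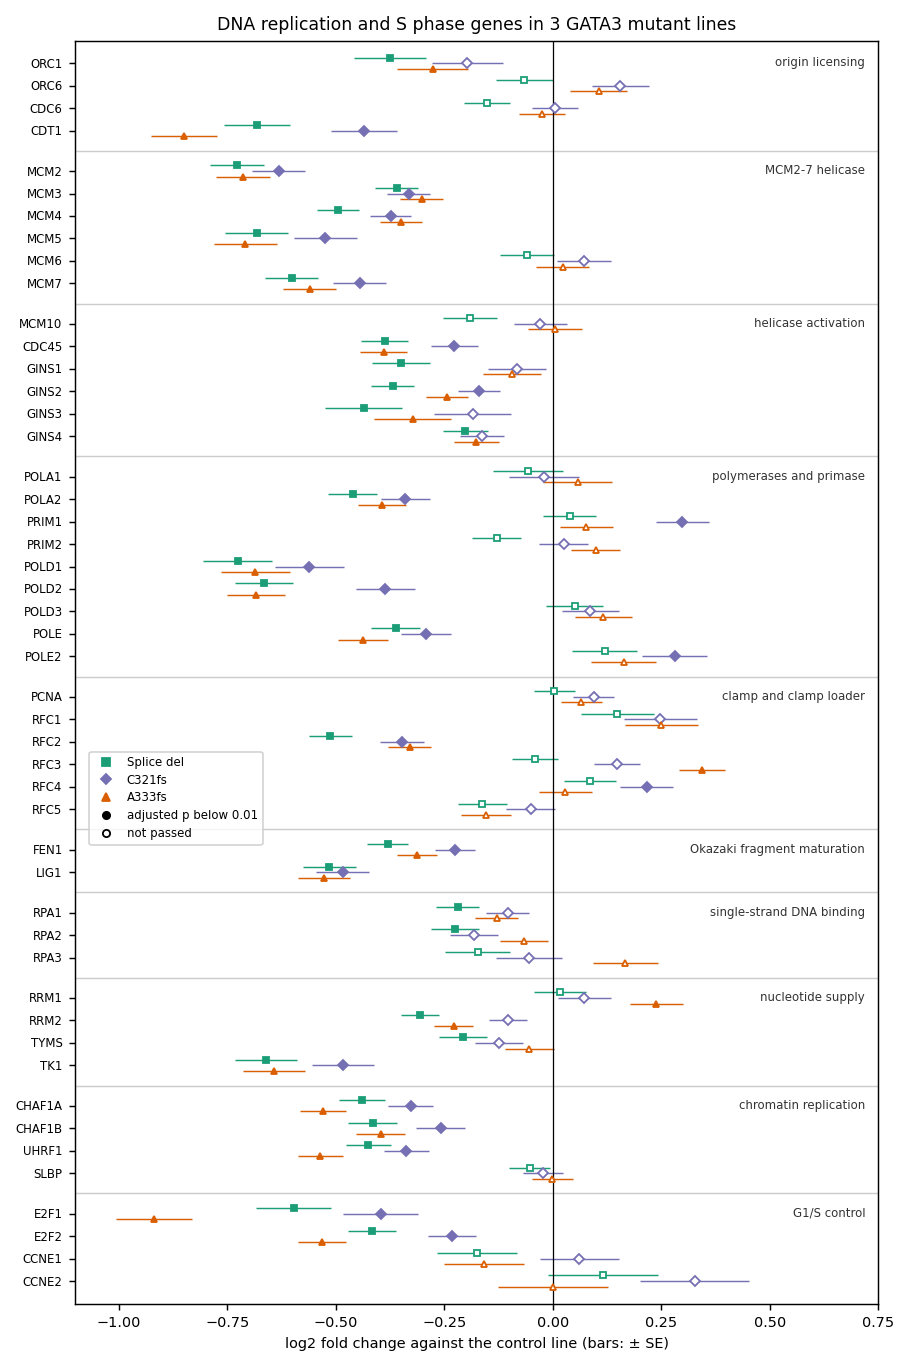
Log2 fold change of each of the 48 genes in the Splice del, C321fs and A333fs lines against control (x axis, bars ± SE, 3 libraries per line), grouped by role; filled points passed at an adjusted p below 0.01. Most filled points lie left of 0, and the largest change is that of E2F1 in A333fs cells (-0.92).

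The library medians over the 48 genes separated the mutant lines from control. In each library, the median over the 48 genes of the deviation from a gene's mean over all libraries was 0.12 to 0.22 on the log2 CPM scale for control libraries and -0.15 to -0.11, -0.00 to 0.03 and -0.06 to -0.04 for those of the mutants. The 4 ranges did not overlap, and C321fs lay nearest to control. The control libraries were spread the most, with an SD of 0.05 against 0.01 to 0.02 in the mutant lines. The MCM2-7 genes had the widest gap, with control libraries at 0.29 to 0.44 and mutant libraries at -0.21 to -0.03. In 5 of the 10 roles, origin licensing, polymerases and primase, the clamp and its loader, single-strand DNA binding and G1/S control, mutant libraries reached the control range. For the clamp and its loader, control libraries lay at -0.09 to -0.02 and mutant libraries at -0.11 to 0.08. The median SD between libraries of a line was 0.04 to 0.06 log2 units over the 48 genes and 0.07 to 0.12 over all tested genes.

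**Figure D2:**
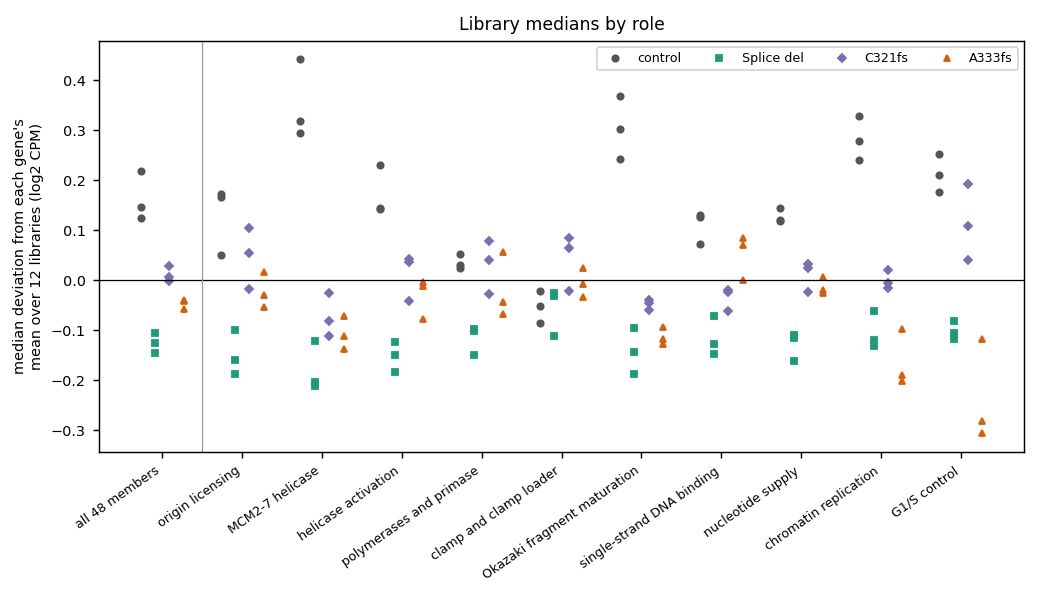
Median deviation of each library from the gene means over 12 libraries (y axis, log2 CPM) for all 48 genes and for each role; 1 point per library, coloured by line. For all 48 genes the control libraries lie at 0.12 to 0.22 and all mutant libraries at 0.03 or lower.

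Many of these genes are known E2F targets, and the RefSeq promoters (GRCh38.p14) of the called genes with the smallest F-test p are therefore shown first, as the 250 bases before the annotated start, 5′ to 3′ on the gene's strand. Capitals mark the letters of an E2F motif (TTTCCCGC, TTTCGCGC, TTTGCCGC or TTTGGCGC), a CCAAT box (CCAAT) or a GATA motif (GATA with A or T before it and A or G after it) on either strand, where present.
MCM2, chr3:127598161-127598410, plus strand: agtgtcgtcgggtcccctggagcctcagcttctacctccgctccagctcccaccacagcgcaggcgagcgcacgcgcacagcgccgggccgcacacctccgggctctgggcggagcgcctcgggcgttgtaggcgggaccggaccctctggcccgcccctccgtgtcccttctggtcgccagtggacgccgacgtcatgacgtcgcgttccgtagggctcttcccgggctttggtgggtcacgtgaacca
CDT1, chr16:88803539-88803788, plus strand: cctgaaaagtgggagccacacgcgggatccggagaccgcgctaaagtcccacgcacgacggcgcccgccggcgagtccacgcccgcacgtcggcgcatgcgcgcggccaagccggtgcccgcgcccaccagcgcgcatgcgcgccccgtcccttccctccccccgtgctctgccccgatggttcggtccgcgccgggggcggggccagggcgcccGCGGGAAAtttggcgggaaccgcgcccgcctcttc
POLD2, chr7:44123549-44123798, minus strand: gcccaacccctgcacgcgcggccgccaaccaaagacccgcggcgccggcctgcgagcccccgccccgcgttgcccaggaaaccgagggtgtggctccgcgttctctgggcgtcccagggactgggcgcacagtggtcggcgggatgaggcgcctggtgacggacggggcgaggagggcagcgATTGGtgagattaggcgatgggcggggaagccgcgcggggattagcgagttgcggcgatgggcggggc
MCM7, chr7:100101398-100101647, minus strand: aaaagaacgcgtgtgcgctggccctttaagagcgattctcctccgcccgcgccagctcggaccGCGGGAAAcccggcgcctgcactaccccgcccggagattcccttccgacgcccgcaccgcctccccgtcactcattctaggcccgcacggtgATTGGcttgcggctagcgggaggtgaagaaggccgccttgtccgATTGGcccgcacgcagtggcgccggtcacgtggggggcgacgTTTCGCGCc
The CDT1 window held 1 E2F motif, 35 bases before the start. The MCM7 window held 2 E2F motifs, 187 and 9 bases before the start, and 2 CCAAT boxes. The start used for MCM7 lies 543 bases from the 5′ end of the counted gene, and those of the other 3 genes 11 to 54 bases. The POLD2 window held 1 CCAAT box, and the MCM2 window none of these letters.

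Promoters were found for 41 of the 48 genes and for 10611 of the tested genes; MCM4, MCM5, GINS4, POLD3, RPA2, RPA3 and CCNE2 had no entry. An E2F motif stood in 15 of the 41 promoters (36.6%) and in 4.43% of all promoters. Of the genes that fell in Splice del cells 11 of 25 held one (44%), and of the others 4 of 16 (25%). Sorted by their change in C321fs cells instead, the shares were 10 of 19 (52.6%) and 5 of 22 (22.7%), and for A333fs they were 10 of 22 (45.5%) and 5 of 19 (26.3%). A CCAAT box stood in 23 of the 41 promoters (56.1%) and in 35.2% of all promoters, and a GATA motif in 1 of the 41 (2.44%), that of RFC3, and in 13.1% of all promoters. These shares include UHRF1, which fell in every line and whose window held 1 E2F motif. The start used for UHRF1 lies 6421 bases from the 5′ end of the counted gene. A match describes the letters of the window and not the binding of a factor. The genes that fell were mostly those with a higher GC content of the counted exons, as given below. The part of GC content in these shares was not tested. MCM6, which did not fall in any line on TMM-scaled counts, had the most E2F motifs of the 41, with 4. It did fall in Splice del and A333fs cells once a trend over GC content and exon length was removed, as given below.

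Among the genes of origin licensing, CDT1 fell in all lines and ORC1 in 2 of them, and CDC6 and ORC6 did not pass. CDT1, which brings the MCM2-7 complex to origins, had 176, 225 and 191 CPM in the control libraries, 121, 118 and 129 CPM in those with Splice del, 156, 139 and 142 CPM with C321fs and 110, 108 and 110 CPM with A333fs. None of the 9 mutant libraries reached the control range, and the A333fs libraries were the lowest. Its log2 fold change was -0.68 ± 0.08 (SE) in Splice del (adjusted p = 3.35e-06), -0.43 ± 0.08 in C321fs (0.000253) and -0.85 ± 0.08 in A333fs cells (3.63e-07). ORC1, the largest subunit of the origin recognition complex, fell in Splice del (-0.38) and A333fs cells (-0.28). ORC6, another subunit of that complex, and CDC6, the ATPase that works with CDT1, passed in none of the lines, with log2 fold changes of -0.15 to 0.16.

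The MCM2-7 helicase, which unwinds the DNA ahead of the fork as a ring of 6 different subunits, had 5 of its 6 genes lower in each mutant line. Their median log2 fold change was -0.55, -0.41 and -0.45. MCM2 had 454, 519 and 442 CPM in control, 277, 280 and 298 with Splice del, 300, 303 and 311 with C321fs and 279, 282 and 302 with A333fs. The highest mutant library was thus well below the lowest control library, and the mutant lines overlapped one another or nearly so. MCM2 fell by 0.73 ± 0.06 (SE) on the log2 scale in Splice del (adjusted p = 2.56e-07), by 0.63 ± 0.06 in C321fs (2.61e-06) and by 0.71 ± 0.06 in A333fs cells (2.47e-07). It was the only one of the 48 genes called in C321fs cells.

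MCM5 and MCM7 followed. MCM5 had 185, 227 and 196 CPM in control, 122, 122 and 135 with Splice del, 148, 136 and 140 with C321fs and 124, 118 and 131 with A333fs, and MCM7 had 363, 427 and 371, then 253, 247 and 265, then 287, 276 and 289, and 265, 253 and 270 in the same order. For both genes every mutant library lay below every control library, and control replicate 2 was the highest library. The log2 fold changes of MCM5 were -0.68, -0.52 and -0.71 (SE 0.07 each), and those of MCM7 were -0.60, -0.45 and -0.56 (SE 0.06 each). The exons of MCM7 share 327 of 3653 bases with AP4M1 on the other strand, and the counting did not use the strand.

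MCM3 and MCM4 fell by less, with log2 fold changes of -0.36, -0.33 and -0.30 for MCM3 and of -0.50, -0.37 and -0.35 for MCM4. MCM6 was the exception of the ring. It had 158, 162 and 159 CPM in control, 155, 152 and 153 with Splice del, 149, 179 and 176 with C321fs and 164, 158 and 164 with A333fs. The C321fs and A333fs libraries of MCM6 overlapped control, the Splice del libraries lay just below it, and the log2 fold changes were -0.06, 0.07 and 0.02 with none passing. Per length of transcript, MCM2 was at 135 ± 11.7 FPKM (fragments scaled to library size and exon length, SD, n = 3) and MCM6 at 42.2 ± 0.52 in control, against 81.2 ± 3.17 and 40.5 ± 0.42 in Splice del cells.

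**Figure D3:**
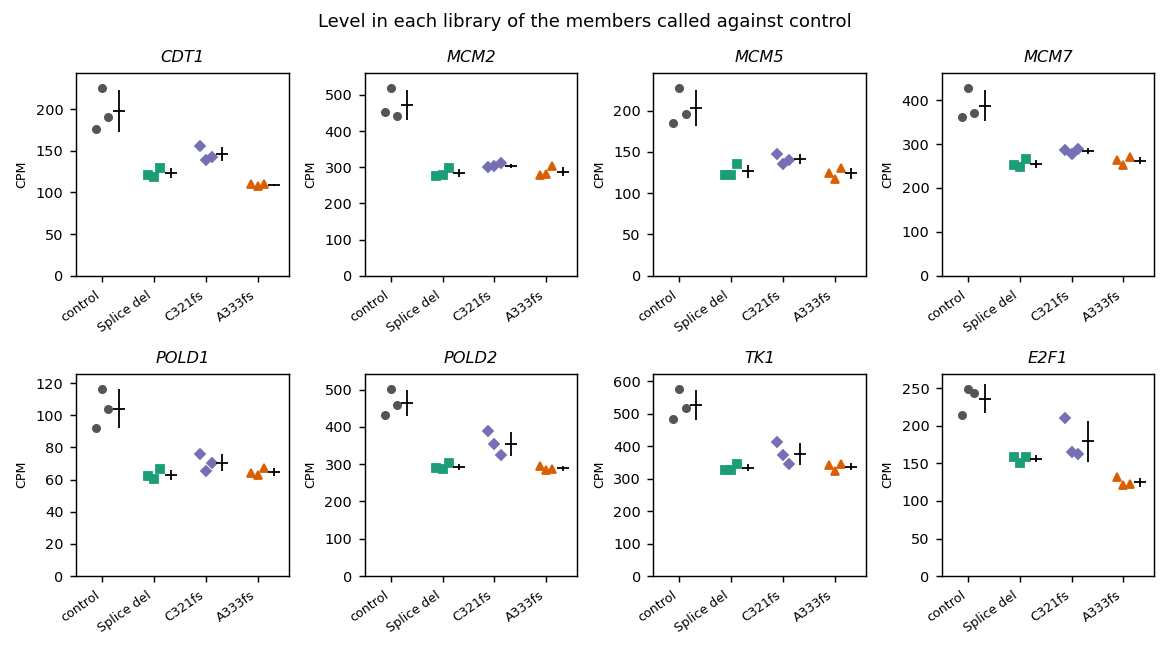
CPM in each library (y axis from 0) of the 8 genes called in at least 1 mutant line, by line; points are the 3 libraries and the black mark beside them is the mean with its SD. In all 8 panels every mutant library lies below every control library, most closely for E2F1 in C321fs cells.

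Of the 6 genes that switch the helicase on, 5, 2 and 4 fell in the mutant lines, and none was called. CDC45, the helicase cofactor, had 48.7, 47.2 and 45.7 CPM in control, 34.5, 36.8 and 36.9 with Splice del, 40.6, 39.9 and 40.4 with C321fs and 36.7, 36.8 and 34.6 with A333fs. No mutant library reached the control range, and C321fs lay between control and the other mutants. The changes of CDC45 were -0.39, -0.23 and -0.39 (SE 0.05 each, adjusted p = 2.95e-05, 0.003 and 2.25e-05). All 4 subunits of the GINS complex fell in Splice del cells, GINS1 by 0.35, GINS2 by 0.37, GINS3 by 0.44 and GINS4 by 0.20 on the log2 scale. GINS2 also fell in C321fs cells (-0.17), and GINS2, GINS3 and GINS4 in A333fs cells (-0.24, -0.32 and -0.18). MCM10, which helps to activate the helicase, passed in none of the lines.

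Among the polymerases, the subunits of polymerase delta, which copies the lagging strand, moved unequally. POLD1, its catalytic subunit, had 92.0, 117 and 104 CPM in control, 62.0, 60.6 and 66.4 with Splice del, 76.0, 65.2 and 70.5 with C321fs and 64.1, 62.8 and 67.4 with A333fs. POLD2, a regulatory subunit, had 431, 503 and 458 CPM in control, 289, 286 and 302 with Splice del, 388, 353 and 324 with C321fs and 295, 283 and 288 with A333fs. Neither gene had a mutant library in the control range, and both were called in Splice del and A333fs but not in C321fs cells. POLD1 changed by -0.73, -0.56 and -0.69 (SE 0.08 each) and POLD2 by -0.67, -0.39 and -0.68 (SE 0.07 each) on the log2 scale. POLD3, another subunit of it, passed in none of the lines (0.05, 0.09 and 0.12).

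The polymerase alpha and primase complex, which lays down the primers, was divided in the same way. POLA2, its B subunit, fell in all lines (-0.46, -0.34 and -0.39). POLA1, its catalytic subunit, had the second largest F-test p of the 48 genes (adjusted p = 0.59), with 82.8, 85.9 and 88.4 CPM in control, 83.2, 81.5 and 82.4 with Splice del, 70.1, 89.5 and 93.9 with C321fs and 87.1, 89.7 and 90.6 with A333fs. The lines overlapped or nearly met, and C321fs replicate 1 was the lowest library. PRIM1, the small primase subunit that makes the primer, rose in C321fs cells (0.30 ± 0.06, adjusted p = 0.000916). POLE, the catalytic subunit of the leading-strand polymerase epsilon, fell in all lines (-0.36, -0.29 and -0.44), while POLE2, its second subunit, rose in C321fs cells (0.28 ± 0.07, adjusted p = 0.00539).

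Few genes of the clamp and its loader passed. PCNA, the sliding clamp, passed in none of the lines, with log2 fold changes of 0.00, 0.09 and 0.07, and its exons share 384 of 1442 bases with PCNA-AS1 on the other strand. RFC2, a subunit of the clamp loader, was the only gene of this role that fell, and it fell in all lines. It had 172, 175 and 160 CPM in control, 121, 116 and 119 with Splice del, 135, 133 and 131 with C321fs and 137, 132 and 134 with A333fs. The Splice del libraries were the lowest, and none of the mutant libraries overlapped control. RFC2 fell by 0.51, 0.35 and 0.33 on the log2 scale (SE 0.05 each). The other subunits moved the other way where they passed, with RFC4 higher in C321fs (0.22 ± 0.06, adjusted p = 0.00753) and RFC3 in A333fs cells (0.34 ± 0.05, adjusted p = 4.89e-05). RFC1 and RFC5 passed in none.

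Both genes of Okazaki fragment maturation fell in all lines. LIG1, the ligase that seals the fragments, had 98.5, 111 and 97.9 CPM in control, 68.6, 70.2 and 76.2 with Splice del, 71.8, 72.4 and 75.5 with C321fs and 69.4, 71.0 and 72.7 with A333fs. The 3 mutant lines overlapped one another and lay below control, with log2 fold changes of -0.52, -0.48 and -0.53 (SE 0.06 each). FEN1, the flap nuclease that acts before the ligase, changed by -0.38, -0.22 and -0.31. Of the 3 subunits of RPA, the protein that covers single-stranded DNA, RPA1 (-0.22) and RPA2 (-0.23) fell in Splice del cells and none passed in C321fs or A333fs cells.

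Nucleotide supply fell for TK1. TK1, the thymidine kinase of the salvage pathway, had the highest level per length of the 48 genes, at 330 ± 29.6 FPKM in control (SD, n = 3). It had 484, 578 and 519 CPM in control, 326, 328 and 346 with Splice del, 414, 372 and 345 with C321fs and 343, 325 and 345 with A333fs. No mutant library reached the control range, and the log2 fold changes were -0.66, -0.48 and -0.64 (SE 0.07 each). The subunits of ribonucleotide reductase parted. RRM2, its S phase subunit, fell in Splice del (-0.31) and A333fs cells (-0.23), while RRM1, its large subunit, passed only in A333fs cells, where it rose (0.24 ± 0.06, adjusted p = 0.00309). TYMS, the thymidylate synthase, fell in Splice del cells (-0.21), and its exons share 888 of 1583 bases with ENOSF1 on the other strand.

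In chromatin replication, 3 of 4 genes fell in every line. UHRF1, which carries DNA methylation over to the new strand, had 172, 183 and 179 CPM in control, 127, 131 and 140 with Splice del, 138, 143 and 141 with C321fs and 121, 120 and 126 with A333fs. The mutant libraries lay below control in each case, and the log2 fold changes were -0.43, -0.34 and -0.54 (SE 0.05 each). CHAF1A and CHAF1B, subunits of the chromatin assembly factor that places histones behind the fork, changed by -0.44, -0.33 and -0.53 and by -0.42, -0.26 and -0.40. SLBP, which binds the stem-loop of histone mRNAs, had the largest F-test p of all 48 genes (adjusted p = 0.659), with 121, 120 and 121 CPM in control, 116, 117 and 116 with Splice del, 122, 116 and 118 with C321fs and 121, 117 and 124 with A333fs. Its log2 fold changes were -0.05, -0.02 and -0.00 (SE 0.05 each).

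Among the genes of G1/S control, the E2F factors fell and the E-type cyclins did not pass. E2F1, which drives S phase transcription, had 214, 250 and 244 CPM in control, 159, 151 and 159 with Splice del, 211, 165 and 162 with C321fs and 131, 121 and 123 with A333fs. The A333fs libraries were the lowest of all, and C321fs replicate 1 was the highest mutant library, just below control replicate 1. E2F1 fell by 0.60 ± 0.09 (SE) on the log2 scale in Splice del (adjusted p = 3.66e-05), by 0.40 ± 0.09 in C321fs (0.00144) and by 0.92 ± 0.09 in A333fs cells (6.24e-07), the last being a 1.89-fold decrease. E2F2 fell by 0.42, 0.23 and 0.53. CCNE1, the cyclin E1 that activates CDK2 at the G1/S transition, had the lowest level per length of the 48 genes, at 5.46 ± 0.74 FPKM in control (SD, n = 3), with 12.0, 10.8 and 9.13 CPM in control, 9.23, 9.42 and 9.64 with Splice del, 11.3, 11.4 and 10.6 with C321fs and 9.58, 9.79 and 9.24 with A333fs. All lines overlapped control, and neither CCNE1 nor CCNE2 passed in any line.

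Base composition moved with these results. The GC content of the counted exons ranged from 35.4% for CCNE2 to 65.0% for POLD1. Across the 48 genes, which share their libraries and so do not stand for replicates, GC content and log2 fold change had a Spearman's rho of -0.85, -0.87 and -0.88. The 16 genes with the highest GC content (53.3% to 65.0%) all fell in each line, with medians of -0.56, -0.39 and -0.55. Of the 16 genes with the lowest GC content (35.4% to 46.2%), 2, 0 and 1 fell, with medians of -0.05, 0.07 and 0.06. The other tested genes moved with GC content too. Those within the GC range of the 16 highest had medians of -0.23, -0.22 and -0.35, and those within the range of the 16 lowest 0.24, 0.24 and 0.28.

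The comparison was therefore repeated after a smooth trend over GC content and exon length had been removed from each library. The log2 fold changes of the replication genes were then more alike. Of the 48 genes 40, 29 and 36 fell, against 28.2%, 22.9% and 21.5% of all tested genes. Of the 48, 0 rose in any line, also at an unadjusted p below 0.05. Among all 14789 tested genes, too, more passed lower (4169, 3381 and 3184) than higher (1770, 1348 and 1498). The medians were -0.35, -0.20 and -0.26, with -0.06, -0.05 and -0.05 over all tested genes. The interquartile range of the log2 fold changes narrowed from 0.38, 0.37 and 0.48 to 0.20, 0.18 and 0.16. Of the 16 genes with the lowest GC content 12, 8 and 10 then fell, and rho was -0.35, -0.35 and -0.29.

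Single genes changed their standing with this step. Past a 1.5-fold change there were 2 genes in Splice del cells, MCM2 (-0.61), which had been called before, and GINS1 (-0.63), which had not, against 2.52% of all tested genes. There were 0 in C321fs and A333fs cells, against 1.29% and 1.56% of all. RRM2, at -0.31 and -0.23 before, was at -0.55 in Splice del and at -0.51 in A333fs cells (adjusted p = 1.04e-09 and 4.65e-09). MCM6 then fell in Splice del (-0.31) and A333fs cells (-0.25), as did POLA1 in all lines (-0.31, -0.23 and -0.21). E2F1 remained the lowest of the 48 genes in A333fs cells (-0.55), and CDT1 (-0.41) and MCM2 (-0.46) fell there as well. None of the increases remained: PRIM1, POLE2 and RFC4 were at 0.03, 0.01 and 0.09 in C321fs cells, and RFC3 and RRM1 at -0.01 and -0.04 in A333fs cells. PCNA, POLD3, RFC1, RFC4, ORC6, POLE2, SLBP and CCNE1 passed in none of the lines with the trend removed.

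**Figure D4:**
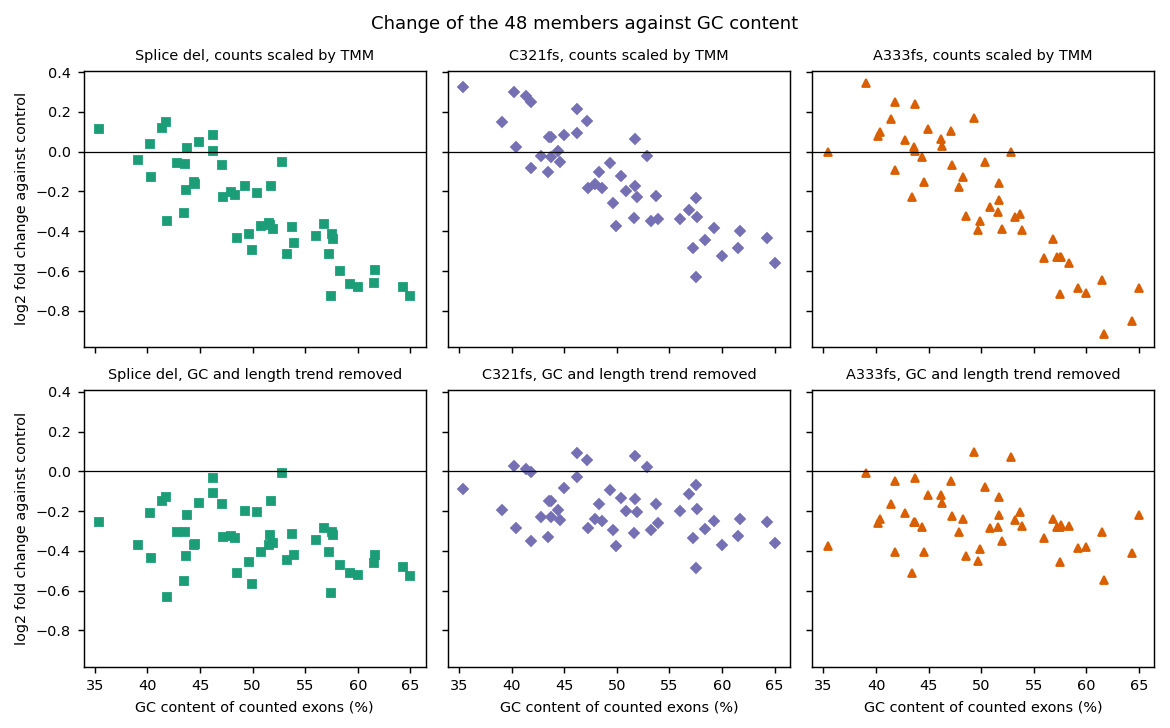
Log2 fold change against control (y axis) of the 48 genes over the GC content of their counted exons (x axis, %) in each mutant line, with TMM-scaled counts (top) and after removal of the trend over GC content and length (bottom). The slope of the upper panels (rho -0.85 to -0.88) is mostly gone in the lower ones (rho -0.35 to -0.29), where most points stay below 0.

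The mutant lines were next compared with one another. None of the 48 genes was called between mutants by edgeR or DESeq2, also at an unadjusted p below 0.05 with the same fold limit, where 2.64% of all tested genes were called between Splice del and C321fs, 5.55% between A333fs and C321fs and 3% between A333fs and Splice del. Splice del cells had lower values than C321fs cells for all 48 genes, with a median log2 fold change of -0.16. Over all 14789 tested genes, 7824 had lower values and the median was -0.011. Of the 48 genes 29 were lower at an unadjusted p below 0.05 in edgeR, for which no share of all genes is given. Only PRIM1 (-0.26) and RRM2 (-0.20) passed, with 2.14% of all genes lower and 4.18% higher. With the trend removed, 15 were lower and 0 higher, against 6.47% and 6.05% of all genes, and the median was again -0.16. Neither PRIM1 nor RRM2 passed without any 1 of the 3 Splice del libraries, since the count of genes was then 0. It was also 0 without C321fs replicate 2 or A333fs replicate 1 or 3, it was 1 without control replicate 3, and it was 4 without C321fs replicate 1 or 3.

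Against C321fs cells, A333fs cells were lower for E2F1 (-0.52 ± 0.09, adjusted p = 0.000342), CDT1 (-0.42 ± 0.08, 0.000757), E2F2 (-0.30 ± 0.06, 0.000877), POLD2 (-0.30 ± 0.07, 0.00382) and UHRF1 (-0.20 ± 0.05, 0.0096), where 8.89% of all genes were lower and 6.8% higher. With the trend removed E2F1 stayed at -0.31 (adjusted p = 0.000105), CDT1 at -0.16 (0.00849) and E2F2 at -0.21 (0.00221), while POLD2 (-0.13) and UHRF1 (-0.14) no longer passed. C321fs replicate 1 stood apart for E2F1, with 211 CPM against 165 and 162 in the other libraries of that line. Without C321fs replicate 2, A333fs replicate 1 or A333fs replicate 3 the count of 5 genes became 3.

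Against Splice del cells, A333fs cells were higher for RFC3 (0.39 ± 0.05, adjusted p = 0.00012), RPA3 (0.34 ± 0.08, 0.00436) and PRIM2 (0.23 ± 0.06, 0.0087), where 4.63% of all genes were higher and 7.29% lower. RPA3, the smallest RPA subunit, had 67.4, 70.6 and 69.8 CPM in Splice del, 91.6, 86.0 and 85.4 in A333fs, 82.8, 74.6 and 76.9 in control and 85.5, 73.1 and 66.8 in C321fs libraries. The A333fs libraries lay above all control libraries and the Splice del libraries below them, while C321fs overlapped both other groups in part. RFC3 had 53, 57.8 and 54.0 CPM in Splice del and 71.2, 73.1 and 71.0 in A333fs libraries, with 56.0, 55.9 and 57.6 in control. Without any 1 of the Splice del libraries, or without A333fs replicate 1 or 3, 1 gene passed in place of 3. Without C321fs replicate 1 it was 8 and without C321fs replicate 3 it was 6.

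**Figure D5:**
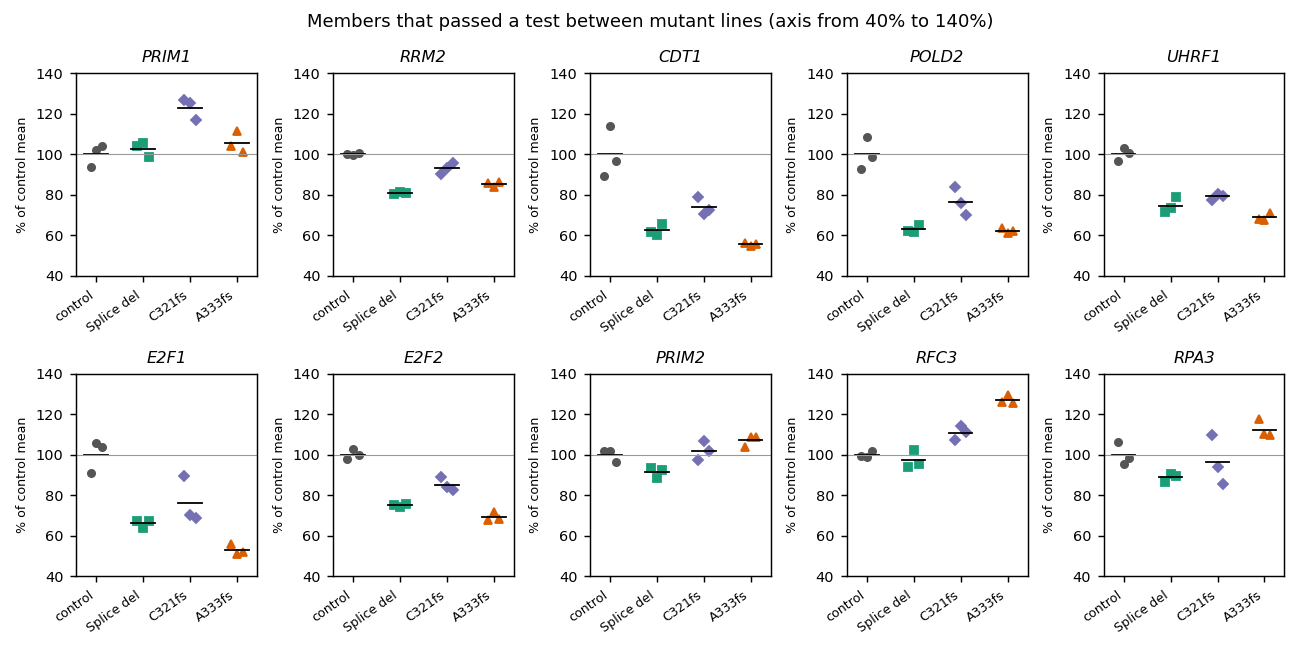
Level in each library, in % of the control mean (y axis from 40% to 140%), of the 10 genes that passed a test between mutant lines; points are libraries and black lines means. E2F1, CDT1, E2F2, POLD2 and UHRF1 are lowest in A333fs cells, and RFC3, RPA3 and PRIM2 are highest there.

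Other genes of the cell cycle were read in the same fit. Of 30 further replication genes, 9, 6 and 8 fell and 4, 9 and 5 rose in the mutant lines, with medians of 0.07, 0.15 and 0.11. The shares that fell were 30%, 20% and 26.7%, against 22.4%, 20.7% and 26.4% of all tested genes. Unlike the 48 genes, these 30 were thus not lower as a group on TMM-scaled counts. Those called were RNASEH2A, the catalytic subunit of ribonuclease H2 (-0.79, -0.55 and -0.66), RECQL4, a DNA helicase (-0.43, -0.30 and -0.66), CHTF18, of an alternative clamp loader (-0.58, -0.54 and -0.77), and POLE4, a small subunit of polymerase epsilon (-0.62, -0.53 and -0.24). With the trend removed 18, 7 and 13 of the 30 fell and 0 rose, where 28.2%, 22.9% and 21.5% of all tested genes fell. The medians of the 30 were then -0.21, -0.05 and -0.17, with -0.06, -0.05 and -0.05 over all tested genes. Of 14 further nucleotide and S phase chromatin genes tested, 6, 4 and 5 fell and 2, 4 and 4 rose. The shares of the 14 that fell were 42.9%, 28.6% and 35.7%, and 18.7%, 16.1% and 21% of all tested genes rose. The called ones among the 14 were IMPDH2, DTYMK and ASF1B.

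Of 27 tested cyclins, cyclin-dependent kinases, inhibitors and RB-E2F genes, 8, 5 and 11 fell and 3, 4 and 4 rose. The shares that fell were 29.6%, 18.5% and 40.7%, against 22.4%, 20.7% and 26.4% of all tested genes. Of all tested genes 18.7%, 16.1% and 21% rose. MYC, a transcription factor of growth and cell cycle genes, had a larger change than any of the 48 genes in Splice del cells, with -1.02 ± 0.06 (SE, adjusted p = 2.13e-09), and changed by -0.66 ± 0.05 in C321fs and -0.92 ± 0.06 in A333fs cells. MYBL2, which acts on late cell cycle genes, changed by -0.64, -0.49 and -0.60, and CCND3, cyclin D3, by -0.55, -0.45 and -0.76. CDKN2B, an inhibitor of CDK4 and CDK6, rose in A333fs cells (0.63 ± 0.08, adjusted p = 8.11e-06), with 0.02 and 0.04 in Splice del and C321fs cells. With the trend removed MYC stayed at -0.95, -0.59 and -0.80.

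On TMM-scaled counts, mitosis genes fell more often than all tested genes in Splice del cells. Of 30, 11, 8 and 7 fell and 1, 4 and 5 rose, with medians of -0.10, 0.02 and -0.05. The shares that fell were 36.7%, 26.7% and 23.3%, against 22.4%, 20.7% and 26.4% of all tested genes. Of all tested genes 18.7%, 16.1% and 21% rose. Those called were PLK1 (-0.72, -0.55 and -0.76) and AURKB (-0.66, -0.37 and -0.73), kinases of mitosis, and CDC20 (-0.66, -0.46 and -0.62), an activator of the anaphase-promoting complex. With the trend removed 23, 15 and 19 of the 30 fell and 0 rose, where 28.2%, 22.9% and 21.5% of all tested genes fell. MKI67, the proliferation marker, was at -0.34 ± 0.10 (adjusted p = 0.00854), -0.43 ± 0.10 (0.00185) and -0.25 ± 0.10 (0.0341).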

How the data were processed

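RNA-seq gene counts of T47D cells were used: 4 lines with 3 libraries each. The authors trimmed the reads, aligned them to hg38 and deposited whole-number counts of properly paired fragments per gene from featureCounts 1.6.4, not normalized. Strand was not used, and fragments that mapped to several places or overlapped several genes were left out. The submitters' processing notes name HISAT2, while the column headers of the deposited counts point to STAR, so the aligner is not settled. The 15 ChIP-seq samples were not analysed here.

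Genes were filtered with filterByExpr by line, scaled by TMM and fitted in edgeR 4.0.16 (R 4.3.3) with 1 coefficient per line over the 12 libraries, without covariates (glmQLFit, glmQLFTest). Each mutant was compared with control and with each other mutant (6 comparisons), and an F-test asked for any difference. Adjusted p-values are Benjamini-Hochberg values over the 14789 tested genes. CPM values are TMM-scaled, and FPKM divides them by the counted exon length. The GC and length trend was removed per library by loess (span 0.3) and entered as offsets. Alternatives were other scalings, filters and thresholds, DESeq2 1.42.0, a fit to each pair, a replicate block and fits without 1 library. The procedure was tested on simulated data.

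The members and gene lists were chosen with earlier results of these data known. Genes were given library by library if called in any comparison, with the smallest F-test p of their role, the highest or lowest level per length or the 2 largest F-test p-values. MCM6 and the genes that passed between mutants were added after their values were seen. Genes of other lists were named if called against control, at most 5 a list. KRT8, KRT18, KRT19, COL3A1, COL1A1 and CD14 met this rule, and of these only KRT8 and CD14 are given with their own values. GATA3, ESR1, EPCAM, CD68 and MKI67 were named after their values were seen. Replicate numbers did not pair the libraries: residuals of same-numbered libraries correlated at -0.0092 on average over 18 pairs. No 2 libraries agreed within sampling noise.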

Additional observations from a re-analysis of the deposited data

Results flagged for a closer look

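Of the 48 genes, 10 are singled out because their change against control differed between mutant lines by a test of the difference itself. C321fs was higher than Splice del for PRIM1 (-0.26 ± 0.06, SE, on the log2 scale for Splice del against C321fs, edgeR adjusted p = 0.00971) and RRM2 (-0.20 ± 0.04, 0.00603). A333fs was lower than C321fs for CDT1 (-0.42), POLD2 (-0.30), UHRF1 (-0.20), E2F1 (-0.52) and E2F2 (-0.30). A333fs was higher than Splice del for PRIM2 (0.23), RFC3 (0.39) and RPA3 (0.34). Splice del was lower than C321fs for 4.17% of the 48 genes and 2.14% of all tested genes. A333fs was lower than C321fs for 10.4% of the 48 genes and 8.89% of all. A333fs was higher than Splice del for 3 of the 48 genes and 4.63% of all. With the GC and length trend removed, POLD2, UHRF1 and PRIM2 no longer passed (-0.13, -0.14 and 0.19), and the part of GC content in these differences was not tested further. Single libraries were not tested for standing apart, since each line had only 3.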

How the results depend on the processing

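Values are given in the order Splice del, C321fs and A333fs against control, and then Splice del against C321fs, A333fs against C321fs and A333fs against Splice del. The 3 medians against control stayed negative under every alternative run. With library size alone, which shifted the median of all tested genes to 0.22, 0.19 and 0.16, they were -0.14, -0.0010 and -0.056, with 0, 0 and 2 genes called and 20, 11 and 19 lower and 6, 11 and 10 higher. With upper-quartile scaling (all genes 0.12, 0.11 and 0.12) they were -0.24, -0.082 and -0.091, with 4, 0 and 4 called and 25, 16 and 20 lower and 0, 8 and 10 higher. The shares of all tested genes that passed under these scalings are not given. With the GC and length trend removed 2, 0 and 0 genes were called, the C321fs and A333fs medians were -0.20 and -0.26, and between mutants 15, 9 and 9 genes passed, with a median of 0.092 for the last pair. With the replicate block and this correction together the values were 2, 0 and 0, -0.20 and -0.26, 14, 10 and 9, and 0.092. POLA1 in A333fs cells, at 0.06 on TMM-scaled counts, turned to -0.21 with the trend removed and with the replicate block and the trend removed. A test against a fold of 1.5 called 0, 0 and 1 gene, and its share of all tested genes is not given. The A333fs median was -0.18 without a filter on low counts and in a fit to the pair alone, and -0.19 with at least 10 counts in every library.

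Counts between mutants were small and less stable. The shares of all tested genes under the settings of this paragraph are not given, so its counts have no background beside them. The counts between mutants were 11, 12 and 10 at an adjusted p below 0.05, 0, 2 and 9 in a fit to each pair, and 5, 6 and 9 with DESeq2. The first was 1 with library size alone, where its median was -0.14. The third was 5 with upper-quartile scaling and 6 without a filter, and its median was 0.080 with RLE, 0.082 with upper-quartile scaling or DESeq2, 0.083 without a filter and 0.020 with library size alone. The A333fs median against C321fs was -0.046 without a filter. The replicate numbers shared nothing but the number, and the replicate block left 0 genes between Splice del and C321fs, 4 and 2 in the other pairs, and 29, 23 and 26 against control. The causes were not tested.

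Fits without 1 library called 5 to 8 genes in Splice del, 0 to 3 in C321fs and 6 to 8 in A333fs cells. Their medians were -0.33 to -0.31, -0.18 to -0.13 and -0.24 to -0.18. Between mutants 0 to 4, 3 to 6 and 1 to 8 genes passed, with medians of -0.16 to -0.14, -0.090 to -0.020 and 0.055 to 0.097, and 0 to 1 was called for A333fs against C321fs (1 without C321fs replicate 3). Between 25 and 39 genes differed among the lines. The shares of all tested genes in the fits without 1 library are not given. The lowest count of any of the 48 genes in a library was 263 fragments, so no value rested on a few fragments, while each line had only 3 libraries.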
